A study of Mus musculus with 10 samples.

Results

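Cytokine receptors and members of the TNF superfamily were compared in the blood of mice that gained much or little weight on olanzapine, an antipsychotic drug. The members are the genes whose symbols begin with Il plus a number and r, Ifnar, Ifngr, Csf plus a number and r, Tnfrsf or Tnfsf. *Il1rn*, which encodes a secreted antagonist, and *Csf1r* were left out, and 47 of the 10431 genes in the deposited table remained. They comprise 24 interleukin receptor genes, 4 interferon receptor genes, 4 colony stimulating factor receptor genes, 10 TNF receptor genes and 5 TNF ligand genes. The rule uses symbols and no measured value, although it was set with earlier results of these data known.

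Whole-blood RNA of 10 female C57BL6 mice (C57BL/6J in the study's methods) was sequenced, 5 from the weight gain prone cohort (AIWG-P; mice P1, P3, P5, P7 and P8) and 5 from the weight gain resistant cohort (AIWG-R; mice R1, R2, R4, R8 and R9). The mice came from 1 vendor at 9 weeks of age, were housed singly, and were all moved from chow to a high-fat diet with 45% of its kcal from fat, without drug for 3 days and then with olanzapine for 14 days. The cohorts are the ends of the range of weight gain within 1 treated colony, and no mouse without drug was analyzed here. The study's methods describe the sequenced blood as baseline blood drawn before the diet, whereas the sample labels carry the olanzapine diet as the treatment and the design text of the series mentions blood from the start and from the end, so the time of sampling rests on the methods.

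Cytokine receptors sit on the cell surface and pass on the signals of secreted proteins. Receptors for interleukins, interferons and colony stimulating factors mostly join a private chain that recognizes the cytokine to a chain shared with other receptors. Many of them, though not all, act through Janus kinases and STAT proteins. Receptors of the TNF superfamily bind trimeric ligands and recruit TRAF proteins or, where they carry a death domain, proteins of the cell death machinery, while decoy receptors bind a ligand without passing on its signal. In blood these genes are active in different leukocytes, so that a value in whole blood depends on the makeup of the blood. Fewer cells of a type and less RNA per cell cannot be told apart in these data.

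Each mouse has 1 normalized value per gene, with no unit, and medians over genes of 142.9 to 145.7. Within a mouse the values are whole multiples of a smallest step. Summed over genes these multiples reached 23810098 to 32293924 per mouse, a measure of depth only if each step was 1 read. Globin genes took 75.0 to 87.5% of the summed values, lowest in R9 and highest in P8. Of 63 blood cell marker genes in the table none was at 0 in any mouse. This says little about which cells were present, since only 3 to 10 genes of the table were at 0 per mouse. Of the listed markers, 3 of 8 for eosinophils and basophils and 8 of 11 for neutrophils were in the table. Red cell markers were higher in AIWG-P for 7 of 9 genes, while 4.06% of all genes tested were called higher. The summed value of the 9 genes ran from 244362 to 407349 among AIWG-P mice and from 165401 to 351064 among AIWG-R mice. Most of this sum was *Alas2*, with cohort means of 308187 (AIWG-P) and 241939 (AIWG-R). *Alas2* was not among the 7 (fold change 1.29), so the sum says little about them. Of 8 neutrophil markers 1, *Ngp*, was higher, and 7 had a log2 fold change above 0, against 5047 of 10429 genes tested. The summed values of the 8 markers were 8679 to 12307 in AIWG-P mice. In AIWG-R they were 16278 in R1 and 6733 to 7821 in the other mice, below all AIWG-P mice. Of 8 NK cell markers 1, *Ncr1*, was lower, and no marker of B cells, T cells, monocytes, platelets, or eosinophils and basophils passed both thresholds.

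All 47 members passed the filter on low values, and none was at 0 in any mouse. A gene was counted as higher or lower at an unadjusted *p* under 0.05 in limma, a linear model fitted across all 10429 genes above the filter, and a level more than 25% higher in one cohort than in the other (a fold change above that or under 0.8). Benjamini-Hochberg adjusted *p* values over all genes are given from limma. Beside them stands the two-sided *p* of an exact permutation test of the difference in mean log2(value + 1) over all 252 splits of the mice, run for the 47 members and *Ltbr* and added once the data had been seen; the smallest it can give is 0.00794. Both set the difference between the cohorts against the variation among the mice.

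The 3 members that differed between the cohorts were TNF family genes. *Tnfsf14* and *Tnfsf13*, which encode the ligands LIGHT and APRIL, were higher in AIWG-P by fold changes of 1.31 and 1.51. *Tnfrsf22*, a decoy receptor of the TNF family known from the mouse, was lower, with a fold change of 0.63. In all, 3 of 47 members (6.38%) passed both thresholds, against 7.29% of all genes tested, so the share among the members was close to the background. Of these 2 were higher, against a background of 4.06%, and 1 was lower, against 3.23%. An unadjusted *p* under 0.05 was reached by the same 3 members, against 12.8% of all genes. No adjusted *p* in limma was under 0.05 for any member, the smallest being 0.325, and over all genes the smallest was 0.256. The exact permutation *p* was under 0.05 for 4 members, these 3 and *Il12rb1*. That test was not run over all genes, so this count has no background share to be set against. The median log2 fold change was 0.0035 over the members and -0.0075 over all genes. In no member did the 5 values of one cohort lie apart from the 5 of the other, while this was so for 2.55% of all genes.

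**Figure D1:**
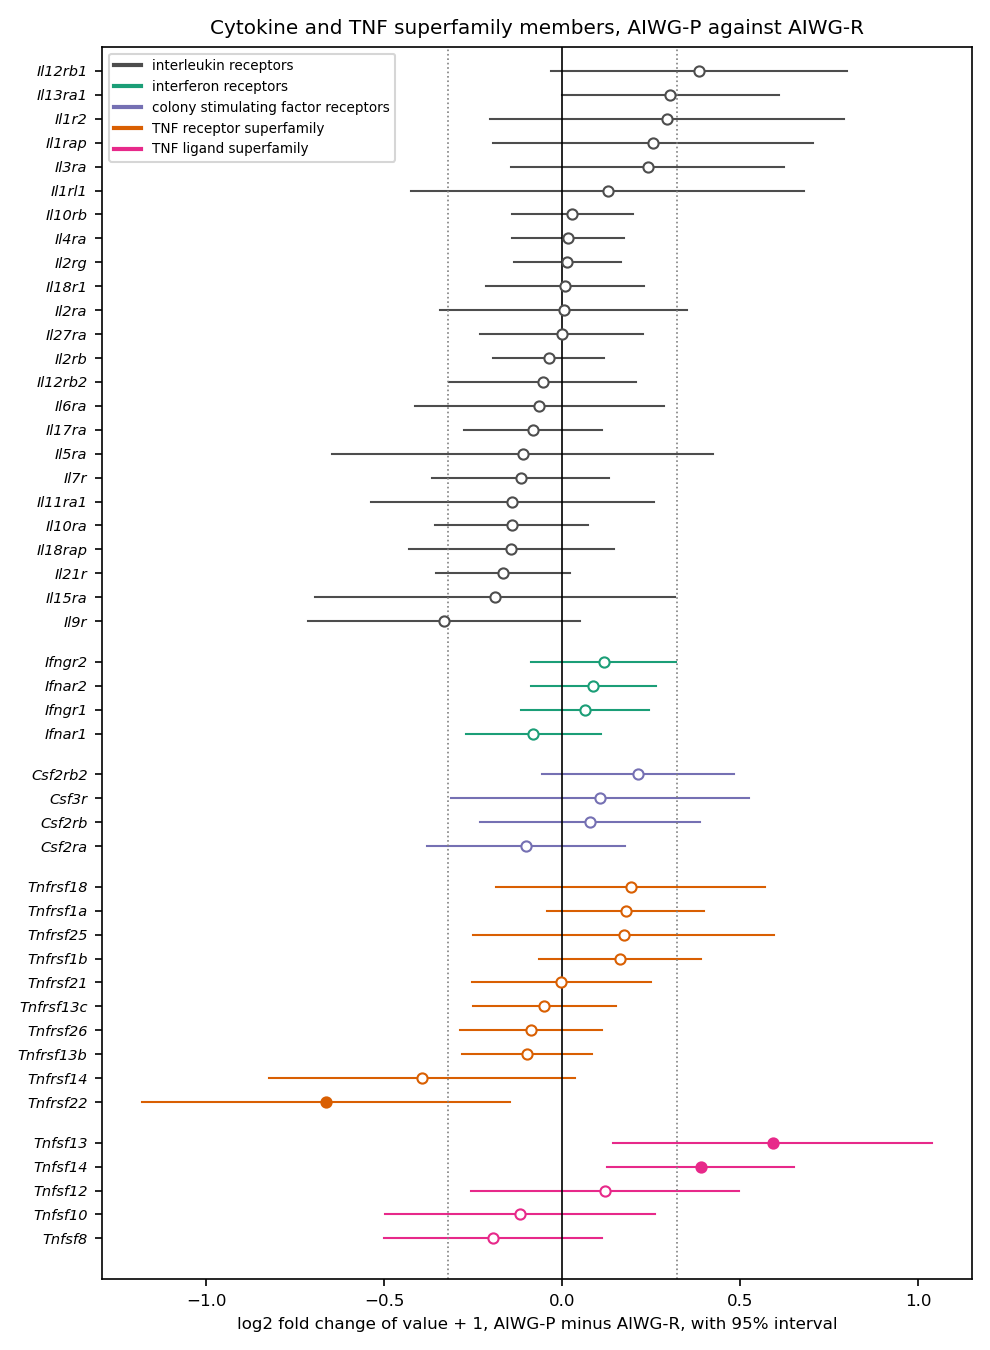
Log2 fold change of the normalized value plus 1, AIWG-P minus AIWG-R, for the 47 members, with the 95% interval from limma (horizontal axis) and members sorted within their family (vertical axis). Filled points mark the 3 members past both thresholds and the dotted lines mark a fold change of 0.8 and its inverse. The intervals of *Tnfsf14*, *Tnfsf13* and *Tnfrsf22* do not reach 0, and those of the 4 interferon receptor genes lie between the dotted lines.

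Among the TNF ligands, *Tnfsf14* encodes LIGHT, which binds the receptors HVEM and LTBR and acts on T cells and on lymphoid stroma. Its normalized value was 155, 112, 113, 136 and 148 in P1, P3, P5, P7 and P8, and 119, 102, 99.8, 84.6 and 99.1 in R1, R2, R4, R8 and R9. P1, P7 and P8 lay above all AIWG-R mice, P3 and P5 lay below R1, and the other 4 AIWG-R mice lay below all AIWG-P mice. AIWG-P mice averaged 133 ± 19.4 and AIWG-R mice 101 ± 12.3 (mean ± SD, n = 5 each), giving a fold change of 1.31 (95% interval 1.09 to 1.57). limma gave a log2 fold change of 0.39 ± 0.12 (SE), adjusted *p* = 0.325, exact permutation *p* = 0.0238. The call held without each mouse in turn (log2 fold change 0.33 to 0.45) and after adjustment for the mean level of the red cell markers (0.38), while rescaling to the summed values without globin genes ended it (0.25). That rescaling moved the median of all genes to -0.15, and relative to the median *Tnfsf14* was then higher by 0.40.

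*Tnfrsf14* encodes HVEM, a receptor for LIGHT that also binds BTLA on lymphocytes. Its values were 45.9, 70.9, 70.3, 51.5 and 34.6 in the AIWG-P mice, in the order P1, P3, P5, P7 and P8, and 55.8, 63.5, 82.0, 65.1 and 86.5 in the AIWG-R mice, in the order R1, R2, R4, R8 and R9. P1, P7 and P8 lay below all AIWG-R mice and R4 and R9 above all AIWG-P mice, with P3 and P5 among the AIWG-R values. The difference missed the threshold (a log2 fold change of -0.39 ± 0.20 (SE), adjusted *p* = 0.423, exact permutation *p* = 0.127). It passed without P3 or P5 or R1 (log2 fold change -0.50, -0.50 and -0.47). With the globin rescaling it also passed (-0.53, or -0.38 relative to the median of all genes). Red cell adjustment gave -0.14, and the fit without P8 gave -0.24. *Ltbr*, the lymphotoxin beta receptor, which also binds LIGHT and belongs to the family although its symbol does not match, had values of 74.9, 98.2, 114, 121 and 108 in the AIWG-P mice and 85.8, 76.9, 92.6, 75.9 and 62.1 in the AIWG-R mice, in the same order. In 4 of 5 AIWG-P mice it lay above all AIWG-R mice, and P1 lay below R1, R2, R4 and R8. *Ltbr* was higher in AIWG-P by a fold change of 1.30 (a log2 fold change of 0.38 ± 0.15 (SE), adjusted *p* = 0.343, exact permutation *p* = 0.0476). *Ltbr* was picked from 18 related genes in the table after its values were seen. It was called in 8 of the 10 fits without 1 mouse, with 0.32 without P7 and 0.30 without R9. Its call ended with the globin rescaling (0.24, with the median of all genes at -0.15) and without P8 and R9 together (0.28). The call also ended with the red cell covariate, although the log2 fold change stayed at 0.38.

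**Figure D2:**
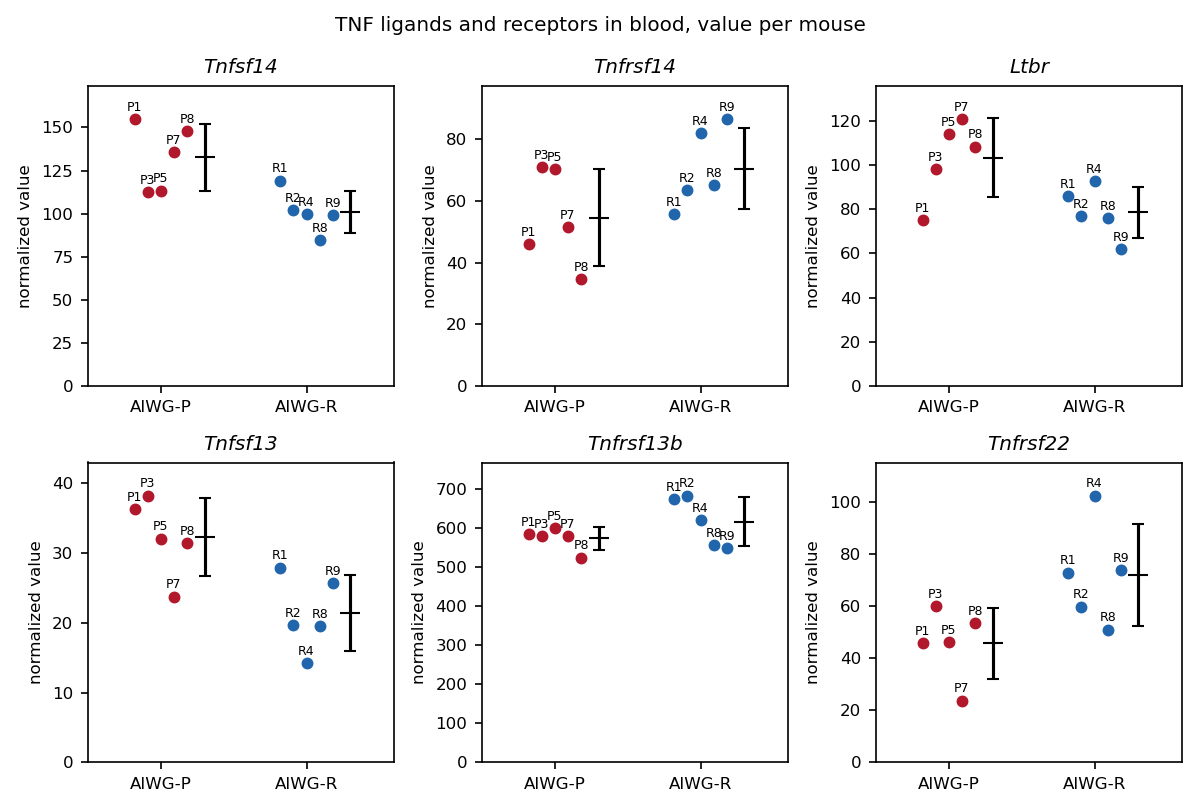
Normalized value (vertical axis, from 0) of 6 TNF family genes in each mouse, AIWG-P in red and AIWG-R in blue, with the mean ± SD of 5 mice in black. The AIWG-P mice P1, P7 and P8 lie above all AIWG-R mice in *Tnfsf14* and below all AIWG-R mice in *Tnfrsf14*.

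*Tnfsf13* encodes APRIL, a ligand for the receptors TACI and BCMA of B cells and plasma cells. Its values were 36.3, 38.2, 32.04, 23.8 and 31.4 in P1, P3, P5, P7 and P8 and 27.9, 19.7, 14.3, 19.5 and 25.7 in R1, R2, R4, R8 and R9. All AIWG-P mice but P7 lay above all AIWG-R mice, and R2, R4 and R8 lay below all AIWG-P mice. AIWG-P mice averaged 32.3 ± 5.57 and AIWG-R mice 21.4 ± 5.44 (mean ± SD, n = 5 each), giving a fold change of 1.51 (95% interval 1.10 to 2.06) and a log2 fold change of 0.59 ± 0.21 (SE), adjusted *p* = 0.343, exact permutation *p* = 0.0238. *Tnfsf13* is among the low members, with 16 to 41 steps per mouse, and a counting error of 19.1% if a step were a read. Its call held without each mouse in turn (0.46 to 0.69). The globin rescaling ended it (0.45, or 0.60 relative to the median of all genes). So did the red cell covariate, at 0.54 with a larger SE of 0.29.

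The sequence of *Tnfsf13* limits what its value stands for. Of the 50-base windows of its coding sequence, 81.3% occur in the transcript of another gene in the GENCODE M21 annotation, the read-through gene *Tnfsfm13*, which joins *Tnfsf12* to *Tnfsf13*, and of those of *Tnfsf12* 83.3% do. The 2 genes are neighbours with no protein-coding gene between them, and an antisense gene, *Tnfsf13os*, overlaps *Tnfsf13* in RefSeq. The sources used here do not say whether reads were counted by strand, so reads of these genes may not have been told apart. *Tnfsf12*, which encodes TWEAK, had values of 36.3, 44.7, 51.6, 58.4 and 69.1 in AIWG-P and 60.1, 42.0, 44.5, 45.6 and 43.3 in AIWG-R, in the same order as above, and did not pass the test (a log2 fold change of 0.12 ± 0.17 (SE), adjusted *p* = 0.773, exact permutation *p* = 0.556).

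The remaining ligands were *Tnfsf8*, which encodes CD30 ligand, and *Tnfsf10*, which encodes TRAIL. *Tnfsf8* had values of 84.6, 85.1, 79.7, 80.2 and 62.8 in AIWG-P and 73.0, 81.4, 79.3, 113 and 108 in AIWG-R. P8 lay below all other mice and R8 and R9 above them, and the difference did not pass the test (a log2 fold change of -0.19 ± 0.14 (SE), adjusted *p* = 0.553, exact permutation *p* = 0.254). *Tnfsf10* ranged from 39.3 in P8 to 85.2 in P5, with a fold change of 0.921 (95% interval 0.71 to 1.20).

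Of the TNF receptors 1 of 10 was lower in AIWG-P and none was higher. *Tnfrsf22* encodes a mouse receptor that binds TRAIL and has no death domain. Its values were 45.9, 60.0, 46.1, 23.8 and 53.4 in P1, P3, P5, P7 and P8 and 73.0, 59.9, 102, 51.0 and 74.0 in R1, R2, R4, R8 and R9. P1, P5 and P7 lay below all AIWG-R mice, R1, R4 and R9 lay above all AIWG-P mice, and P3, P8, R2 and R8 overlapped. AIWG-P mice averaged 45.8 ± 13.7 and AIWG-R mice 72.1 ± 19.5 (mean ± SD, n = 5 each), giving a fold change of 0.631 (95% interval 0.44 to 0.90), with a log2 fold change of -0.66 ± 0.24 (SE), adjusted *p* = 0.343, exact permutation *p* = 0.0397. The call held without each mouse in turn, from -0.45 without P7 to -0.78 without R8, and with the globin rescaling (-0.81, or -0.66 relative to the median of all genes). With the red cell covariate it ended, at a log2 fold change of -0.69 with a larger SE of 0.34.

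*Tnfrsf22* is one of a group of closely related decoy receptor genes on chromosome 7, next to *Tnfrsf26*. Over 531 aligned coding bases its sequence is 90.4% identical to that of *Tnfrsf23*, which is not among the 47 members, and 10.6% of its 50-base windows occur in other transcripts. Of its 100-base windows 0.60% do. A stretch of 150 coding bases (GENCODE M21, GRCm38) was picked for the fewest differences, with at least 3 required. It spans bases 384 to 533 of *Tnfrsf22* and 354 to 503 of *Tnfrsf23*, counted from the A of the start codon. A short read from it could belong to either gene, and capitals mark the 3 bases that differ.

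Tnfrsf22: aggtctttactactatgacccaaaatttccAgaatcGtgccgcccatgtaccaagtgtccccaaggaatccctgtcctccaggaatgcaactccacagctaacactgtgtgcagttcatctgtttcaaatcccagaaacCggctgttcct
Tnfrsf23: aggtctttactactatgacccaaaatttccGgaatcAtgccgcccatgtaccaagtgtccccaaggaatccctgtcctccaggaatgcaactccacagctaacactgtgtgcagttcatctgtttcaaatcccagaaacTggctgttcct

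The value of *Tnfrsf22* may thus hold reads of *Tnfrsf23* or miss some of its own. *Tnfrsf26*, a further member of this group, is 66.9% identical to *Tnfrsf22* over 496 aligned bases. It ranged from 129.7 in P7 to 166.6 in R4, with a fold change of 0.941 (95% interval 0.82 to 1.08).

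The receptors for TNF itself were *Tnfrsf1a*, which carries a death domain and is present on most cells, and *Tnfrsf1b*, which is found on leukocytes. *Tnfrsf1a* had values of 446, 451, 372, 428 and 407 in AIWG-P and 426, 397, 388, 362 and 295 in AIWG-R. P1, P3 and P7 lay above all AIWG-R mice and R9 was lowest, and the difference did not pass (a log2 fold change of 0.18 ± 0.10 (SE), adjusted *p* = 0.461, exact permutation *p* = 0.111). *Tnfrsf1b* was likewise lowest in R9, at 807, and highest in P3, with a fold change of 1.12 (95% interval 0.96 to 1.31). The B cell receptors *Tnfrsf13b*, which encodes TACI and binds APRIL, and *Tnfrsf13c*, which encodes the BAFF receptor, had fold changes of 0.934 (95% interval 0.82 to 1.06) and 0.965 (95% interval 0.84 to 1.11). Both intervals lay inside 0.8 to its inverse. *Tnfrsf18*, which encodes GITR of regulatory T cells, *Tnfrsf25*, the death receptor DR3 of T cells, and *Tnfrsf21*, the death receptor DR6, had fold changes of 1.14 (95% interval 0.88 to 1.48), 1.13 (95% interval 0.84 to 1.51) and 0.998 (95% interval 0.84 to 1.19). *Tnfrsf25* was highest in P8, at 77.0, which also had the highest summed value of T cell markers (8234).

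**Figure D3:**
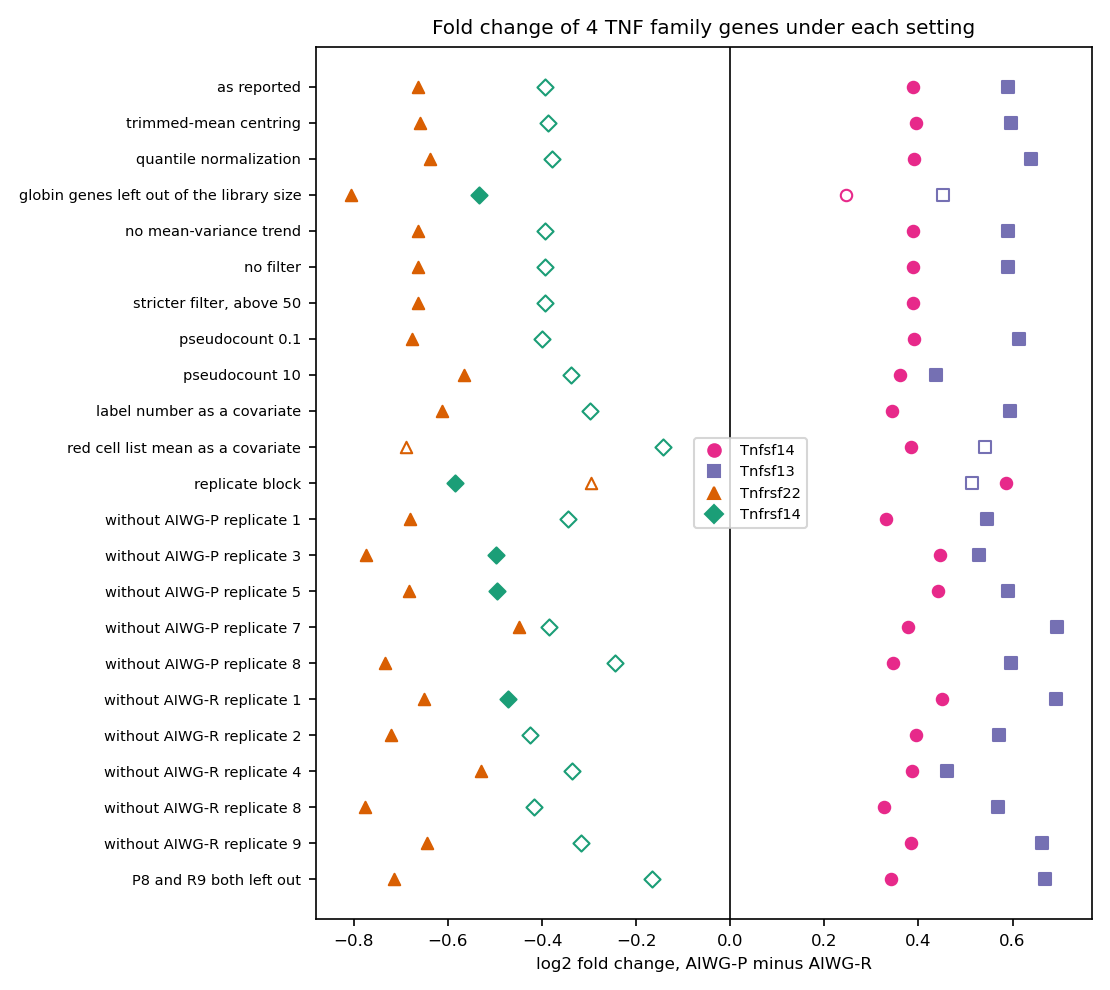
Log2 fold change of *Tnfsf14*, *Tnfsf13*, *Tnfrsf22* and *Tnfrsf14* (horizontal axis) as reported and under each alternative (vertical axis). Filled symbols passed both thresholds. The points of each gene keep their side of 0 in every setting shown, and *Tnfsf13* has no value under the stricter filter.

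No interleukin receptor gene passed both thresholds, and 8 of 24 had a 95% interval of the fold change inside 0.8 to its inverse. Across all members 16 of 47 did (34.0%), against 26.2% of all genes tested. The smallest *p* among the interleukin receptor genes were those of *Il13ra1*, *Il12rb1* and *Il21r*. *Il13ra1* encodes a chain of the receptors for IL-4 and IL-13. It had values of 178, 262, 209, 259 and 168 in AIWG-P and 202, 165, 153, 193 and 149.9 in AIWG-R. P3, P5 and P7 lay above all AIWG-R mice, while P1 and P8 lay among them. limma gave a log2 fold change of 0.30 ± 0.14 (SE), adjusted *p* = 0.392, exact permutation *p* = 0.103. Without P1, P8, R1 or R8 it passed, at 0.37, 0.39, 0.36 and 0.35.

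*Il12rb1* encodes the chain shared by the receptors for IL-12 and IL-23, which act on T cells and NK cells. It had values of 25.4, 20.7, 20.3, 22.8 and 26.7 in AIWG-P and 22.5, 15.2, 15.1, 20.6 and 15.0 in AIWG-R. R2, R4 and R9 lay below all AIWG-P mice, and R1 and R8 within their range. The gene, with 17 to 26 steps per mouse, had a log2 fold change of 0.38 ± 0.19 (SE), adjusted *p* = 0.419, exact permutation *p* = 0.0476. It missed the threshold of limma and passed under quantile normalization, without the mean-variance trend and without R1. *Il21r* encodes the receptor for IL-21, which acts on B cells, T cells and NK cells. It had values of 603, 644, 677, 635 and 523 in AIWG-P and 723, 721, 667, 616 and 727 in AIWG-R, with P8 lowest and R1, R2 and R9 above all AIWG-P mice. Its difference missed the threshold (a log2 fold change of -0.17 ± 0.09 (SE), adjusted *p* = 0.431, exact permutation *p* = 0.0556).

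Receptors that use the common gamma chain serve the survival and growth of lymphocytes, and 0 of their 8 genes passed in limma, with 0 at an unadjusted *p* under 0.05. *Il2rg*, the common gamma chain, ranged from 1264 in P5 to 1474 in P8, with a fold change of 1.01 (95% interval 0.91 to 1.12), and 64.2% of its 50-base windows also occur in a predicted gene, *Gm20489*. *Il4ra*, the shared chain of the IL-4 and IL-13 receptors, ranged from 1172 to 1372 (fold change 1.01 (95% interval 0.91 to 1.13)), and *Il2rb*, the beta chain of the IL-2 and IL-15 receptors, from 423 to 508 (fold change 0.974 (95% interval 0.87 to 1.08)). These genes and *Il10rb* were the 4 members whose highest value was less than 25% above the lowest over the 10 mice. *Il9r*, the IL-9 receptor, was lowest in P8, at 92.7, and highest in R2, at 198.5, with a log2 fold change of -0.33 (SE 0.18, not called). It passed as lower with the globin rescaling (-0.48, or -0.33 relative to the median of all genes). Without P1 (-0.42) and without R8 (-0.48) it passed as well. *Il7r*, the survival receptor of T cells, *Il2ra*, the alpha chain of the IL-2 receptor, and *Il15ra*, the alpha chain of the IL-15 receptor, had fold changes of 0.922 (95% interval 0.78 to 1.10), 1 (95% interval 0.79 to 1.27) and 0.877 (95% interval 0.62 to 1.24).

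In the IL-1 and IL-18 receptor family 0 of 5 measured genes passed. *Il1r2*, a decoy receptor for IL-1 found on neutrophils, ranged from 29.5 in R2 to 69.3 in P7 (fold change 1.23 (95% interval 0.87 to 1.73)), and *Il1rap*, the accessory chain of the IL-1 receptors, from 72.3 in P8 to 170.2 in P3 (fold change 1.19 (95% interval 0.87 to 1.63)). *Il1rap* passed without P8. *Il1rl1*, which encodes the IL-33 receptor ST2, ranged from 21.8 in P7 to 55.8 in R9, the mouse with the highest summed value of eosinophil and basophil markers (567.5). *Il18r1* and *Il18rap*, the chains of the IL-18 receptor, had fold changes of 1.01 (95% interval 0.86 to 1.17) and 0.906 (95% interval 0.74 to 1.11).

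The IL-10 receptor chains belong with the interferon receptors to the class II receptors, of which 0 of 6 measured genes passed. *Il10ra*, the private chain of the IL-10 receptor, ranged from 843 to 977 in AIWG-P and had 1 low value, 758 in R9, below 4 AIWG-R values of 1008 to 1066 (fold change 0.906 (95% interval 0.78 to 1.05)). Its log2 fold change of -0.14 was -0.24 without R9, short of the fold threshold, and with the red cell covariate it passed as lower (-0.36). The shared chain *Il10rb* had a fold change of 1.02 (95% interval 0.91 to 1.15). Of the receptors of the gp130 and IL-12 type 0 of 6 passed. *Il6ra*, which binds IL-6, was at 285.9 in P8 and between 446 and 582 in the other mice. *Il12rb2*, the private chain of the IL-12 receptor, *Il27ra*, the IL-27 receptor, and *Il11ra1*, an IL-11 receptor gene that shares 59.3% of its windows with *Il11ra2* and *Gm13305*, had fold changes of 0.963 (95% interval 0.80 to 1.15), 0.999 (95% interval 0.85 to 1.17) and 0.907 (95% interval 0.69 to 1.19). *Il17ra*, the shared chain of the IL-17 receptors, ranged from 1255 in P8 to 1740 in R4 (fold change 0.944 (95% interval 0.83 to 1.08)).

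None of the 4 interferon receptor genes passed, and in the fit as reported the 95% intervals of all 4 lay inside 0.8 to its inverse. With the globin rescaling the log2 fold change of *Ifnar1* was -0.23, with the median of all genes at -0.15. *Ifngr2*, a chain of the interferon gamma receptor, had values of 329, 376, 343, 385 and 393 in AIWG-P and 393, 349.5, 347, 298 and 302 in AIWG-R. P8 was highest, followed by R1, and the lowest mice were R8 and R9, with a log2 fold change of 0.12 ± 0.09 (SE), adjusted *p* = 0.595, exact permutation *p* = 0.23. *Ifnar2*, a chain of the receptor for type I interferons, had values of 344, 309.9, 338, 341 and 350.4 in AIWG-P and 343, 346, 309, 312 and 278 in AIWG-R, lowest in R9 (a log2 fold change of 0.09 ± 0.08 (SE), adjusted *p* = 0.644, exact permutation *p* = 0.286). Of its 50-base windows 17.8% occur in *Gm21970*, as do 51.9% of those of the neighbouring *Il10rb*. The other type I chain, *Ifnar1*, had values of 575, 640.4, 559, 483 and 498 in AIWG-P and 588, 612, 598, 564 and 542 in AIWG-R. P7 and P8 lay below all AIWG-R mice and P3 above them, with a log2 fold change of -0.08 ± 0.09 (SE), adjusted *p* = 0.688, exact permutation *p* = 0.333. *Ifngr1*, the ligand-binding chain of the interferon gamma receptor, ranged from 803 in R9 to 1065 in P8 (fold change 1.04 (95% interval 0.92 to 1.18)). *Ifnar2*, *Il10rb*, *Ifnar1* and *Ifngr2* follow each other in the genome with no other protein-coding gene between them.

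None of the 4 colony stimulating factor receptor genes passed. *Csf2rb2* encodes a beta chain of the mouse IL-3 receptor. It had values of 135, 178, 137, 154 and 157 in AIWG-P and 126, 148, 127, 102 and 158 in AIWG-R. P3 was highest and R8 lowest, with a log2 fold change of 0.21 ± 0.12 (SE), adjusted *p* = 0.468, exact permutation *p* = 0.159. With the red cell covariate it passed as higher (0.43), so that *Tnfsf14*, *Csf2rb2* and *Il10ra* were the members called in that fit. *Csf2ra*, the alpha chain of the receptor for GM-CSF, had values of 382, 356, 276, 374 and 299 in AIWG-P and 419, 426, 365, 306 and 298 in AIWG-R, with R1 and R2 above all AIWG-P mice and P5 lowest (a log2 fold change of -0.10 ± 0.13 (SE), adjusted *p* = 0.735, exact permutation *p* = 0.508). *Csf3r* encodes the receptor for G-CSF of neutrophils. It had values of 3390.4, 3195, 2149.7, 2659.7 and 1857 in AIWG-P and 3697, 2104, 2261, 2370.0 and 1910.1 in AIWG-R (a log2 fold change of 0.11 ± 0.19 (SE), adjusted *p* = 0.821, exact permutation *p* = 0.659). R1 had the highest value of *Csf3r* and also the highest summed value of neutrophil markers, 16278 against 6733 to 7821 in the other AIWG-R mice, and the part of the neutrophils in these differences was not tested. *Csf2rb*, the common beta chain of the receptors for IL-3, IL-5 and GM-CSF, was likewise highest in R1, at 746 (fold change 1.06 (95% interval 0.85 to 1.31)). The alpha chains *Il3ra* and *Il5ra* had fold changes of 1.18 (95% interval 0.90 to 1.54) and 0.925 (95% interval 0.64 to 1.34), and *Il5ra* was lowest in P8, at 26.7.

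*Csf2rb* and *Csf2rb2* are neighbours on chromosome 15 that are 95.2% identical over 2631 aligned coding bases, and 26.3% of the 50-base windows of *Csf2rb* and 26.6% of those of *Csf2rb2* occur in the other. The following stretch of 150 coding bases (GENCODE M21, GRCm38; bases 485 to 634 of *Csf2rb* and 488 to 637 of *Csf2rb2*) shows how little separates them, with the 3 differing bases in capitals.

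Csf2rb: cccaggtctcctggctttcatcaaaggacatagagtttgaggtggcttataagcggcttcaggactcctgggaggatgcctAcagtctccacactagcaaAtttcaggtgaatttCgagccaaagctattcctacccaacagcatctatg
Csf2rb2: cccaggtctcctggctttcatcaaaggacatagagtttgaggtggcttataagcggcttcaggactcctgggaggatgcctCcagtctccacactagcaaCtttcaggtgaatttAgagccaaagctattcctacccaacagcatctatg

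The sources used here do not say how reads of this pair were divided, and the values of both genes are uncertain to that extent.

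**Figure D4:**
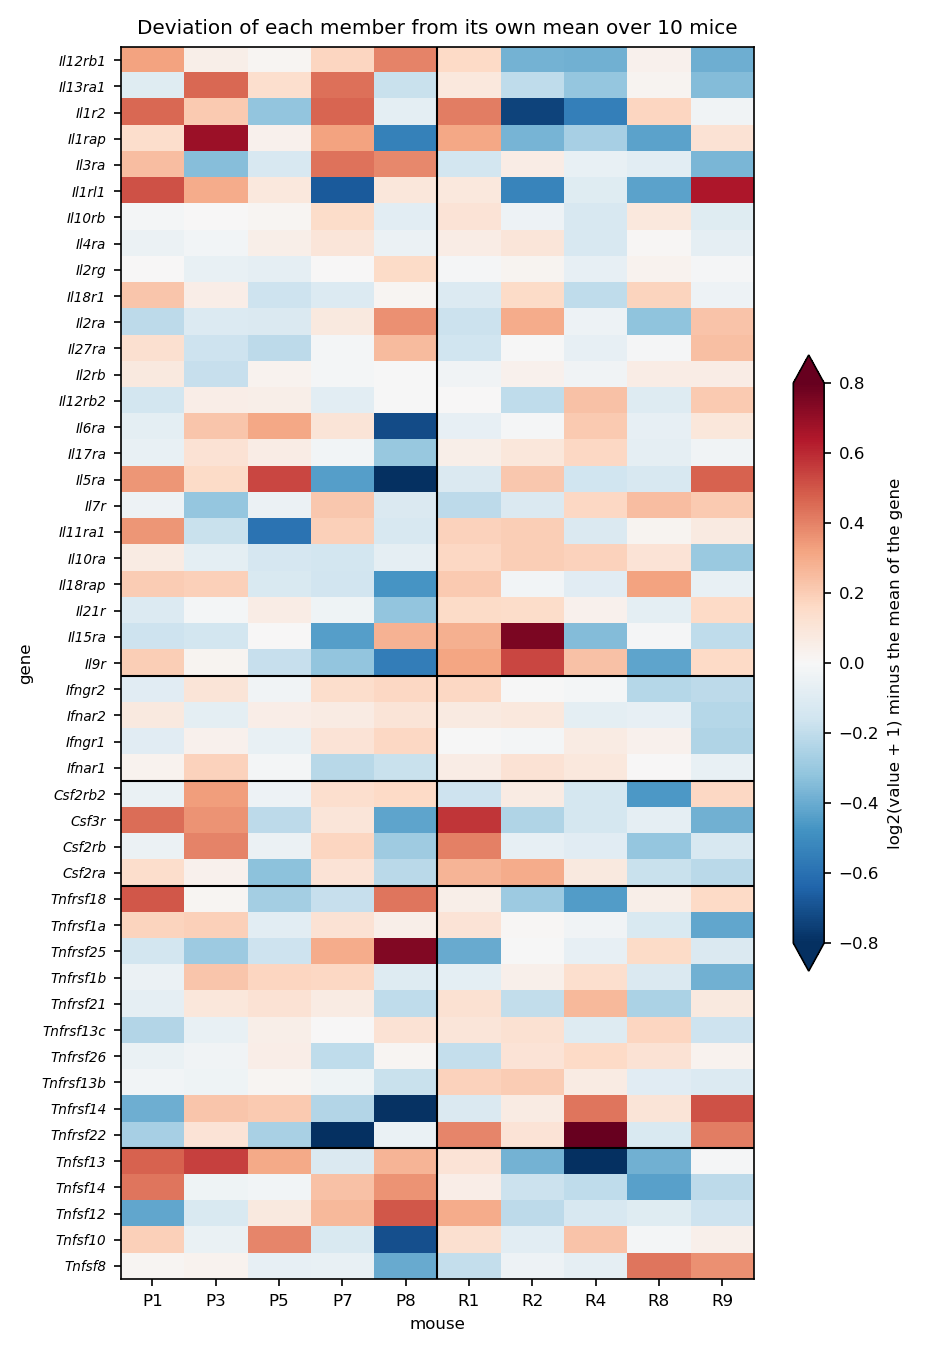
Deviation of log2(value + 1) from the mean of each gene over the 10 mice, for the 47 members (rows, by family and then by fold change) and the 10 mice (columns, AIWG-P left of the line and AIWG-R right of it). The color scale ends at 0.8 either way. P8 has the lowest value of 12 members and the highest of 9.

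The median standard deviation within a cohort was 0.22 log2 units over the members and 0.21 over all genes. It ran from 0.07 in *Il2rg* to 0.46 in *Il5ra*. In 12 members the highest value was over 2 times the lowest. P8, the mouse with the largest globin share, was lowest in 12 members and highest in 9, and R9, with the smallest, was lowest in 8. P8 also had the fewest steps summed over the members, 11076, and R9 the most, 28014. In the fit without these 2 mice, which was added once the data had been seen, *Tnfsf14*, *Tnfsf13* and *Tnfrsf22* passed again (log2 fold change 0.34, 0.67 and -0.71), together with *Il13ra1* (0.34) and *Il1rap*.

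Beyond the members, a fixed list of 23 other genes of these families, such as *Il6st*, *Fas*, *Cd40* and *Ltb*, had 18 in the table. Of these 18, *Ltbr* was higher and none was lower, against 4.06% and 3.23% of all genes tested. Of 21 signalling proteins next to the receptors, Janus kinases, TRAF proteins and adaptors among them, 0 passed both thresholds in limma. *Ripk1*, a kinase downstream of TNF receptors, and *Birc3*, an inhibitor of apoptosis bound by TRAF proteins, had an unadjusted *p* under 0.05 with log2 fold changes of 0.19 and -0.19, short of the fold threshold. The 7 subgroups by shared chain or death domain had 0 genes past both thresholds each. The lists were chosen with earlier results of these data known.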

How the data were processed

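Whole-blood RNA of 10 mice was sequenced (TruSeq libraries). The submitters' processing notes list Bowtie2, RSEM and limma as tools and mm9 as the build; versions were not given in the sources used here. RSEM made the authors' per-gene counts, by the study's methods. In the deposited table each gene has 1 signal value for each mouse, after a normalization by the authors that is not described. The authors' cohort means, their signed fold change (a score), its log2 ratio, and their p-values and q-values are also deposited and were not used. Columns of mouse values left out numbered 0.

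The values were treated as normalized and no count-based test was run. log2(value + 1) was fitted with limma 3.58.1 (mean-variance trend, R 4.3.3) for 10429 genes whose value exceeded 1 in 5 or more mice, without covariates, and checked on simulated data. A call needed *p* under 0.05 before adjustment together with a fold change under 0.8 or above its inverse, with Benjamini-Hochberg adjustment over all genes; the exact permutation test was added after seeing the data. Fold changes on this scale understate those of low genes. Members called, the 3 with the smallest *p* in each of the 5 groups and members whose cohorts do not overlap were to be given for every mouse. *Ltbr* was named from a list of related genes after its values were seen.

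The members, lists and tests were chosen with earlier results of these data known. All 47 members matched RefSeq by Entrez ID. Shared windows of 50 and 100 bases and alignments used GENCODE M21 coding sequences (GRCm38), on the same strand. This build differs from mm9, so no coordinates are given. Alternatives were trimmed-mean centring, quantile normalization, globin genes (*Hba-a1*, *Hba-a2*, *Hbb-bs*, *Hbb-bt*) left out of the library size, no trend, no or a stricter filter (above 50), pseudocounts of 0.1 and 10, other fold thresholds, the number 3 or 4 in the sample titles (meaning not given) or the red cell list mean as a covariate, the mouse number as a block and leaving out each mouse; P8 and R9 left out together was added after seeing the data. Intervals given for step counts cover counting error only.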

Additional observations from a re-analysis of the deposited data

Results flagged for a closer look

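In 6 of 94 combinations of a member and a cohort, 1 mouse stood apart from the other 4 of its cohort (gap over range above 0.71). Chance alone flags about 1 in 20 such groups. *Csf3r* was at 3697 in R1 and between 1910 and 2370 in the other AIWG-R mice. *Csf2rb* was at 745.6 in R1, against 455.6 to 539.1 in the others. *Tnfsf12* was at 60.08 in R1, against 42.0 to 45.6. *Il10ra* was at 757.5 in R9, against 1008 to 1066. Among the AIWG-P mice, *Tnfrsf13b* was at 524.7 in P8, against 579.3 to 599.4 in the others, and *Tnfsf8* was at 62.84 in P8, against 79.7 to 85.1.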

How the results depend on the processing

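Of 1025 log2 fold changes of the 47 members under the alternatives, 912 kept their direction and their side of the thresholds. Those of *Tnfsf14*, *Tnfsf13* and *Tnfrsf22* kept their direction in every alternative run, and no member reached an adjusted *p* under 0.05 in any, the smallest in limma being 0.122. The count of members higher in AIWG-P, 2 as reported, was 0 with globin genes left out of the library size, 1 under the stricter filter, 1 at a fold threshold of 1.5, 1 with the replicate block and 4 without P8 and R9, and ranged from 2 to 4 without 1 mouse. The count lower, 1 as reported, was 3 with globin genes left out and 2 with the replicate block, and ranged from 1 to 2 without 1 mouse. The stricter filter tests 38 members and leaves out *Tnfsf13* by construction. Over all genes, leaving globin genes out of the library size called 13.2% of genes (162 higher and 1212 lower, in place of 423 and 337), the stricter filter called 7.04%, a fold threshold of 1.5 called 1.5%, the replicate block called 17% (770 and 1006), the red cell covariate called 3.88% (141 and 264), and the fit without P8 and R9 called 3.51% (178 and 188).

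The mouse numbers pair no samples by design. Mice numbered 1 and 8 occur in both cohorts, and the deviations of these pairs correlated at 0.12 and 0.33 over 10429 genes. With the number as a block, which leaves 1 residual degree of freedom per gene, the log2 fold change was 0.59 in *Tnfsf14* (called), 0.51 in *Tnfsf13*, -0.30 in *Tnfrsf22* and 0.16 in *Ltbr* (none of these called), and *Tnfrsf14* (-0.58) and *Il18rap* were called lower.

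In 26 members the direction turned in some alternative (86 values). None of these values passed both thresholds, none belonged to a member that passed as reported, and the cause was not tested. The direction turned with globin genes left out of the library size in Csf2rb (-0.0658), Csf3r (-0.0378), Ifnar2 (-0.0564), Ifngr1 (-0.0808), Ifngr2 (-0.0273), Il10rb (-0.12), Il18r1 (-0.14), Il1rl1 (-0.0138), Il2ra (-0.14), Il2rg (-0.13), Il4ra (-0.13) and Tnfsf12 (-0.0213). In that fit the median of all genes was -0.15. After adjustment for the red cell markers it turned in Csf3r (-0.14), Ifnar2 (-0.0081), Ifngr1 (-0.0122), Il10rb (-0.0172), Il12rb2 (0.0899), Il18r1 (-0.13), Il27ra (0.0861), Il2rg (-0.0072), Il4ra (-0.0082), Il6ra (0.0692), Il7r (0.0138) and Tnfrsf21 (0.14). With the replicate block it turned in Csf2rb (-0.21), Csf3r (-0.24), Il10rb (-0.15), Il11ra1 (0.0095), Il13ra1 (-0.19), Il1r2 (-0.10), Il1rap (-0.14), Il27ra (0.28), Il2rb (0.0233), Il4ra (-0.0795), Tnfrsf26 (0.018) and Tnfsf12 (-0.061). Without P8 and R9 it turned in Ifngr1 (-0.0231), Il18r1 (-0.0055), Il2ra (-0.0305), Il2rg (-0.0244), Il5ra (0.20), Il6ra (0.12), Tnfrsf21 (0.0663), Tnfsf10 (0.0379) and Tnfsf12 (-0.0165). With the label number as a covariate it turned in Il2ra (-0.0235), Il2rg (-0.001), Il5ra (0.0255) and Il6ra (0.0004), under quantile normalization in Il27ra (0.0104), Il2rg (-0.0126) and Il4ra (-0.0081), and under trimmed-mean centring in Il27ra (0.004) and Tnfrsf21 (0.0029). Without 1 mouse the log2 fold change spanned 0 in Csf2rb (-0.0114 to 0.19), Il10rb (-0.0058 to 0.0584), Il18r1 (-0.0469 to 0.0534), Il27ra (-0.0653 to 0.0586), Il2ra (-0.0874 to 0.0784), Il2rb (-0.0631 to 0.0023), Il2rg (-0.0231 to 0.0324), Il4ra (-0.0153 to 0.041), Il5ra (-0.26 to 0.0939), Il6ra (-0.15 to 0.11), Tnfrsf13c (-0.0981 to 0.0014), Tnfrsf21 (-0.0668 to 0.0625) and Tnfsf10 (-0.23 to 0.0426). Depth limits the low genes: 17 members had under 50 steps in some mouse.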
